A study of Mus musculus with 6 samples.

Results

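The genes that encode the proteasome were compared between RAW264.7 mouse macrophages grown on a modified and on a pristine polymer surface. Members were chosen by gene symbol in the platform annotation (Psma, Psmb, Psmc, Psmd, Psme, Psmf or Psmg followed by a digit, plus Pomp), which gave 51 genes of the 19505 named genes on the array, with 1 probe set each. Of these, 48 encode parts, activators, inhibitors or assembly factors of the proteasome, and 3 (Psmc3ip, Psme3ip1 and Psme2b) share the symbol pattern without such an assigned role and were counted apart. Psmb5, which encodes another constitutive catalytic subunit, was not analysed here.

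RAW264.7 is a mouse macrophage line, and its cells were kept for 3 days on modified PEEK (3 arrays) or on pristine PEEK as control (3 arrays). PEEK, polyetheretherketone, is a polymer used for bone implants, and the sources used here do not describe its modification. Cells on both surfaces grew in the same serum-containing medium, and the labels name no other treatment. Total RNA of the whole culture was measured on Affymetrix arrays, so fewer cells of a type and less RNA per cell cannot be told apart. Cells were seeded in triplicate, but the labels do not state whether the triplicates were independent experiments, and the spread that the p-values rest on may therefore be technical.

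The proteasome is the protease complex that degrades ubiquitin-tagged proteins in the cytosol and nucleus. Its 20S core is a barrel of alpha and beta rings with the proteolytic sites inside, and its 19S cap binds ubiquitin chains, removes them and unfolds the substrate with a ring of ATPases. In macrophages and other immune cells, interferon induces replacement catalytic subunits (Psmb8, Psmb9 and Psmb10) and the activator pair Psme1 and Psme2. The resulting immunoproteasome supplies many of the peptides that MHC class I molecules present.

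Signals were on the log2 scale and ran from 0.941 to 12.4. Over all genes, arrays of the same surface correlated at 0.991 to 0.995 and arrays of different surfaces at 0.985 to 0.988. Below a signal of 3.72 lay 95% of 1410 odorant and pheromone receptor genes, and this value served as background. Of the members only Psmb11 averaged below it. All 10 measured macrophage markers averaged above this background, while Cd3e, Cd3d, Cd3g, Ms4a1 and Epcam, which mark lymphocytes and epithelium, averaged below it. The other measured lymphocyte and epithelial markers averaged somewhat above it: Cd4 (4.30), Cd8a (3.81), Cd79a (3.79), Krt8 (4.44), Krt18 (3.81) and Cdh1 (4.32). Summed linear signals of the macrophage markers ran from 18518 to 18776 on modified PEEK and from 19287 to 19603 on pristine PEEK, with 4 of 10 changes above 0 and 6 below, Adgre1 passing as higher and Itgam and Fcgr1 as lower. The 6 osteoclast markers, of which Calcr averaged below background, summed to 675 to 813 on modified PEEK and to 949 to 987 on pristine PEEK, with Acp5 (-1.41) and Dcstamp (-0.84) passing as lower. The osteoclast list did not move as a whole, since Nfatc1 (0.31) and Ocstamp (0.33) had changes above 0 and, like Ctsk (-0.29) and Calcr (-0.11), did not pass. Summed signals of the fibroblast, T cell, B cell, neutrophil and epithelial lists were at most 133 on modified and 103 on pristine PEEK. The part of these marker differences in the results on proteasome genes was not tested.

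Most proteasome genes had nearly the same signal on both surfaces. With limma and Benjamini-Hochberg adjustment over all genes, 2 of 51 members (3.92%) were lower on modified PEEK, where 5.15% of all genes were lower, and 1 member (1.96%) was higher, where 5.24% of all genes were higher. The 2 lower genes were Psmd8 and Psmd11, which encode subunits of the 19S cap, and the higher gene was Psmc3ip, whose product is not a proteasome part. Together 5.88% of members passed, beside 10.4% of all genes and 15.0% of genes above the receptor background. The 95% interval of the change, not adjusted for the number of genes, lay within 1.5-fold in both directions for 46 of 51 members. This held for 14379 of 19505 genes in all and for 9276 of 12994 above the receptor background. The members' smaller spread between arrays (median 0.086, against 0.15 for all genes) also narrows their intervals. The interval reached past 1.5-fold for Psmd5, Psmd11, Psmf1, Psmb11 and Psmc3ip, and past 2-fold only for Psmc3ip. The median change of the members was -0.063 on the log2 scale, against 0.0088 for all genes, and it was 0.18 with the arrays scaled to the poly-A spikes, a scaling that adds 0.25 to every change. Relative to all genes the member median was -0.072 under either scaling. The 24 spike probe sets averaged 6.71 ± 0.14 on modified and 6.96 ± 0.15 on pristine PEEK (SD, n = 3 each). That SD is wider than the median spread of the members (0.086), so the size of the spike scaling is uncertain wherever it is used below.

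**Figure D1:**
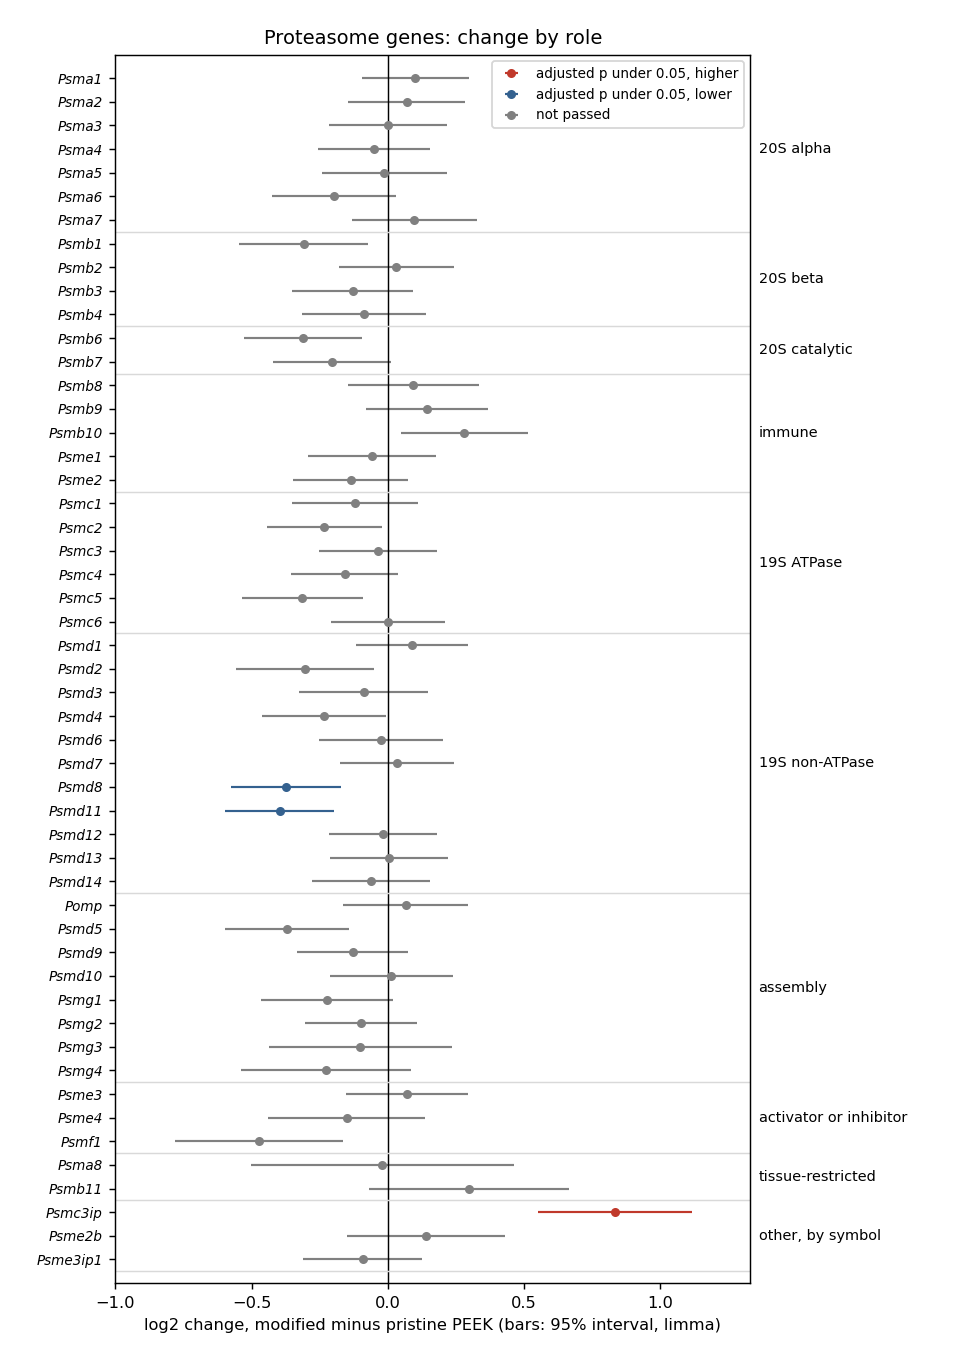
Log2 change (modified minus pristine PEEK) of the 51 proteasome genes by role, with 95% intervals from limma on 3 arrays per surface. Psmd8 (-0.37) and Psmd11 (-0.40) are the genes that passed as lower and Psmc3ip (0.83) the gene that passed as higher, and most of the others lie within 0.2 of 0.

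The arrays of the surfaces were apart for more members in one direction than in the other. For 16 of 51 members (31.4%) every modified array was below every pristine array, which held for 14.5% of all genes and 19.4% of genes above the receptor background. Every modified array was above every pristine array for 4 members (7.84%), against 14.3% of all genes and 18.6% of those above the background. When the variance was modelled with an intensity trend, which lets bright genes have a smaller spread, 12 members (23.5%) passed as lower, beside 8.81% of all genes and 12.9% of those above the background. With the trend 1 (1.96%) passed as higher, beside 8.13% of all genes. The members had a median signal of 8.85, against 5.04 for all genes, and a median spread between arrays of a surface of 0.086, against 0.15. The 12 were Psma6, Psmb1, Psmb6, Psmb7, Psmc2, Psmc5, Psmd2, Psmd4, Psmd5, Psmd8, Psmd11 and Psmf1. Scaled to the poly-A spikes, 0 members passed as lower, beside only 1.49% of all genes. Psma6 (0.049), Psmb7 (0.042), Psmc2 (0.014) and Psmd4 (0.013) then had changes above 0.

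Arrays of one surface also differed among themselves. Of the 3 modified arrays, replicate 1 was the highest for 33 of 51 members, replicate 2 for 7 and replicate 3 for 11. Of the pristine arrays, replicate 1 was the highest for 11 members, replicate 2 for 25 and replicate 3 for 15. The median deviation of the members from their own mean over all arrays was 0.017 on modified replicate 1, -0.057 on modified replicate 2 and -0.066 on modified replicate 3. On the pristine arrays it was 0.0020 on replicate 1, 0.088 on replicate 2 and 0.063 on replicate 3, so modified replicate 1 and pristine replicate 1 lay close together. This pattern was not particular to the members. Genes above the receptor background had median signals of 6.72, 6.58 and 6.63 on modified replicates 1, 2 and 3. Their medians on pristine replicates 1, 2 and 3 were 6.62, 6.67 and 6.66. For all genes, dim ones included, modified replicate 1 had the lowest median (4.98, beside 5.10 and 5.01).

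**Figure D2:**
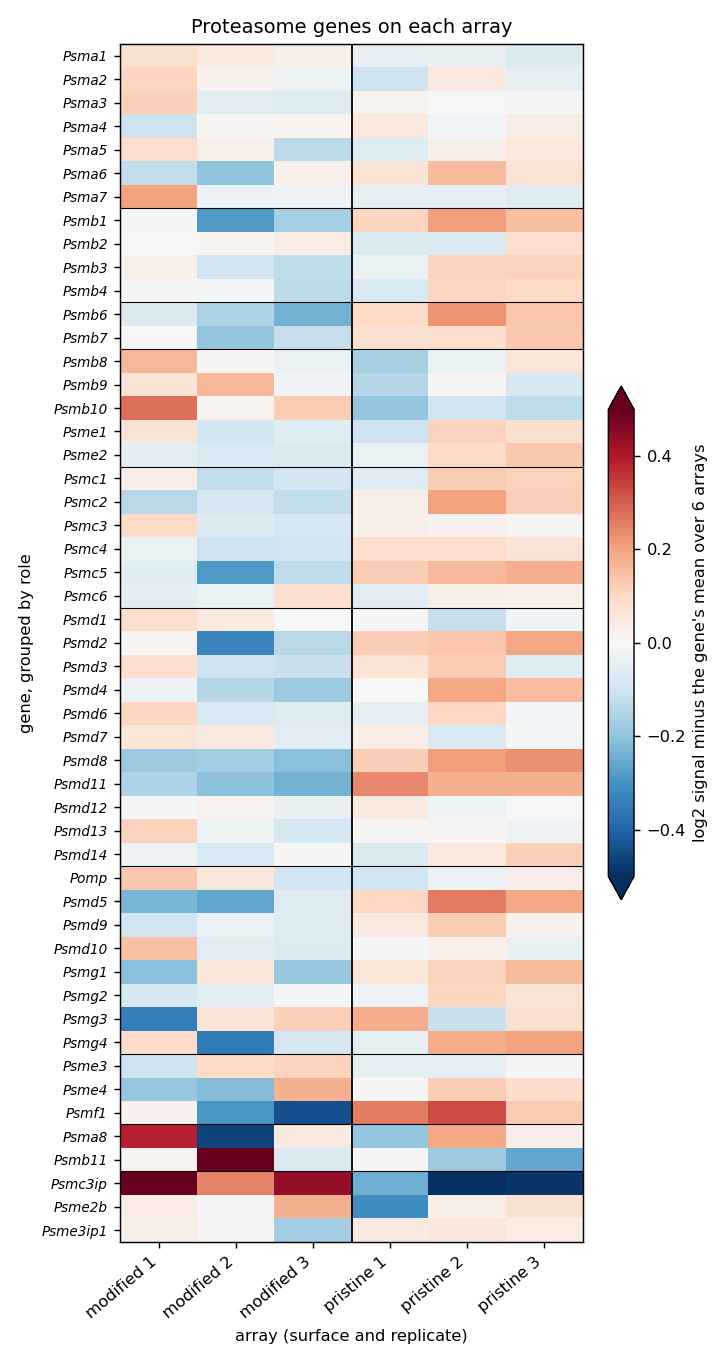
Each row is 1 of the 51 proteasome genes and each column 1 array, with colour for the log2 signal minus the gene's mean over the 6 arrays, clipped at 0.5. Psmd8, Psmd11 and Psmd5 are among the rows that are blue on all 3 modified arrays and red on all 3 pristine arrays, as are Psmb6 and Psmc5. Modified replicate 1 is redder than modified replicates 2 and 3 in most rows, and Psmc3ip shows the opposite pattern to Psmd11.

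The alpha rings form the outer faces of the 20S core and gate the entry of substrates. None of their 7 genes (Psma1 to Psma7) passed, and their median change was -0.00055. Psma6 had the largest change, with signals of 9.34, 9.27 and 9.50 on modified PEEK against 9.54, 9.63 and 9.54 on pristine PEEK. The groups did not overlap, but the modified arrays spread over most of the gap, and the change was -0.20 (95% interval -0.43 to 0.028; limma adjusted p = 0.289). Psma1 read 9.71, 9.69 and 9.67 on modified PEEK against 9.60, 9.60 and 9.57 on pristine PEEK, higher on 3 of 3 arrays by a small step of 0.10 (adjusted p = 0.561). Psma7 was also higher on every modified array, through replicate 1 at 8.73 beside 8.50 and 8.50, with 8.49, 8.49 and 8.47 on pristine PEEK. The remaining alpha genes (Psma2, Psma3, Psma4 and Psma5) overlapped between surfaces, with changes from -0.052 for Psma4 to 0.069 for Psma2.

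The structural beta genes Psmb1, Psmb2, Psmb3 and Psmb4 encode the ring positions without proteolytic sites, and none passed. Psmb1 read 9.28, 9.0 and 9.12 on modified PEEK against 9.40, 9.49 and 9.44 on pristine PEEK. Its modified arrays were all lower but uneven, and the change was -0.31 (95% interval -0.55 to -0.072; adjusted p = 0.111, and 0.00227 with an intensity trend). Psmb3 (-0.13), Psmb4 (-0.087) and Psmb2 (0.031) overlapped between surfaces.

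The constitutive catalytic subunits and their immune replacements occupy the same ring positions, Psmb6 or Psmb9 at beta1 and Psmb7 or Psmb10 at beta2. Psmb6, which encodes the caspase-like subunit, read 9.33, 9.25 and 9.17 on modified PEEK against 9.51, 9.63 and 9.54 on pristine PEEK. All modified arrays were lower, with a change of -0.31 (95% interval -0.53 to -0.095) and an adjusted p of 0.0805, or 0.000803 with an intensity trend. Psmb7, for the trypsin-like subunit, read 9.59, 9.40 and 9.47 against 9.67, 9.68 and 9.73 on pristine PEEK. The groups did not overlap here either, by a narrow margin at modified replicate 1, and the change was -0.21 (adjusted p = 0.247, and 0.0197 with an intensity trend).

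None of the 5 immune genes passed, and 3 had changes above 0 and 2 below, with a median of 0.093. Psmb10 read 7.37, 7.11 and 7.22 on modified PEEK against 6.90, 6.99 and 6.97 on pristine PEEK. Every modified array was higher, with replicate 1 the farthest, and the change was 0.28 (95% interval 0.048 to 0.51; adjusted p = 0.138). It was 0.53 and passed when scaled to the poly-A spikes (adjusted p = 0.0476), and it passed with the dimmer 50% of genes left out (adjusted p = 0.0389). Psmb9 read 7.26, 7.36 and 7.18 on modified PEEK against 7.05, 7.20 and 7.11 on pristine PEEK, overlapping at 1 array of each surface (0.14, 95% interval -0.079 to 0.37; adjusted p = 0.452). Psmb8, which replaces the chymotrypsin-like subunit, read 8.28, 8.12 and 8.08 on modified PEEK against 7.95, 8.08 and 8.17 on pristine PEEK. These ranges overlapped, and the 95% interval of the change, -0.15 to 0.33, ended at a 1.26-fold rise (adjusted p = 0.68). Over the other fits the change of Psmb8 ran from 0.034 to 0.34, and it passed in none of them.

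**Figure D3:**
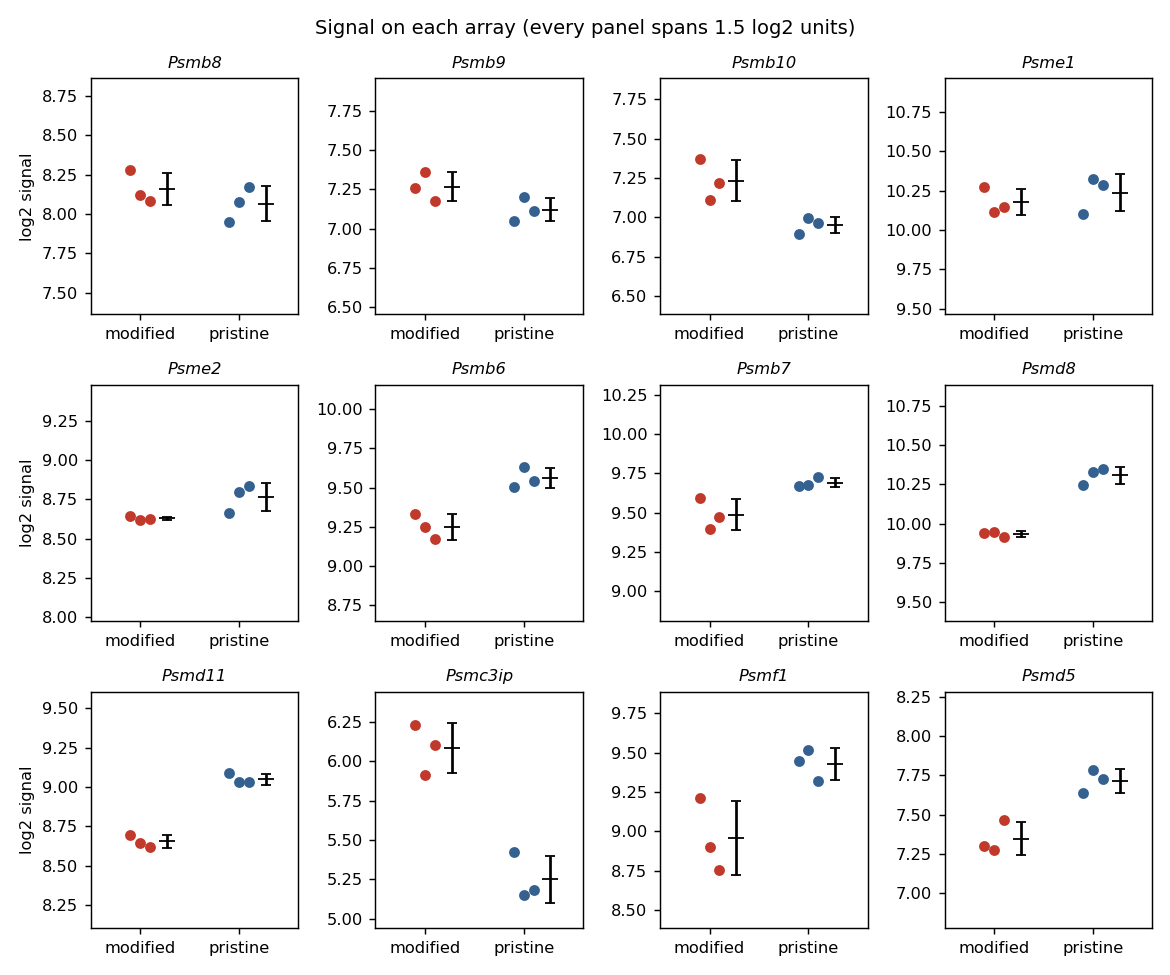
Log2 signals of 12 genes on each of the 3 modified (red) and 3 pristine (blue) arrays, with the mean and SD in black and the same span of 1.5 log2 units in every panel. Psmd8, Psmd11, Psmd5, Psmf1, Psmb6, Psmb7 and, by a narrow margin, Psme2 are lower on all modified arrays and Psmc3ip and Psmb10 higher, while Psmb8, Psmb9 and Psme1 overlap.

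The activator subunits encoded by Psme1 and Psme2 cap the core in place of the 19S particle. Psme1 read 10.27, 10.12 and 10.15 on modified PEEK against 10.11, 10.32 and 10.29 on pristine PEEK, and the surfaces overlapped (-0.059, adjusted p = 0.807). Psme2 read 8.64, 8.62 and 8.63 on modified PEEK against 8.66, 8.80 and 8.83 on pristine PEEK. The modified arrays were nearly identical and all slightly lower, with a change of -0.14 (95% interval -0.35 to 0.075; adjusted p = 0.454). Psme2b, which RefSeq also lists as Psme2-like, had a change of 0.14 (95% interval -0.15 to 0.43; adjusted p = 0.596). Whether the probes of Psme2 and Psme2b distinguish their transcripts was not tested.

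Within each array, Psmb9 stood higher relative to Psmb6, and Psmb10 relative to Psmb7, on modified PEEK. Psmb8 was set against no partner, since Psmb5 was not analysed here. The log2 signal of Psmb9 minus that of Psmb6 was -2.07, -1.89 and -1.99 on the modified arrays, against -2.45, -2.43 and -2.43 on the pristine arrays. For Psmb10 minus Psmb7 it was -2.22, -2.29 and -2.25 on the modified arrays, against -2.77, -2.68 and -2.76 on the pristine arrays. In both pairs the surfaces were apart by several times the spread between arrays. The first difference averaged -1.98 ± 0.09 on modified and -2.44 ± 0.01 on pristine PEEK (SD, n = 3 each), a shift of 0.46 or 1.37-fold in the ratio. The second averaged -2.25 ± 0.03 on modified and -2.74 ± 0.05 on pristine PEEK (SD, n = 3 each), a shift of 0.49 or 1.40-fold. Scaling an array cancels in these differences, and without any 1 array the shifts stayed between 0.41 and 0.50 for the first pair and between 0.47 and 0.51 for the second. A shift of this kind shows unequal change of the partners, the signals of different probe sets say nothing of which protein is more abundant, and no test was run on it.

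**Figure D4:**
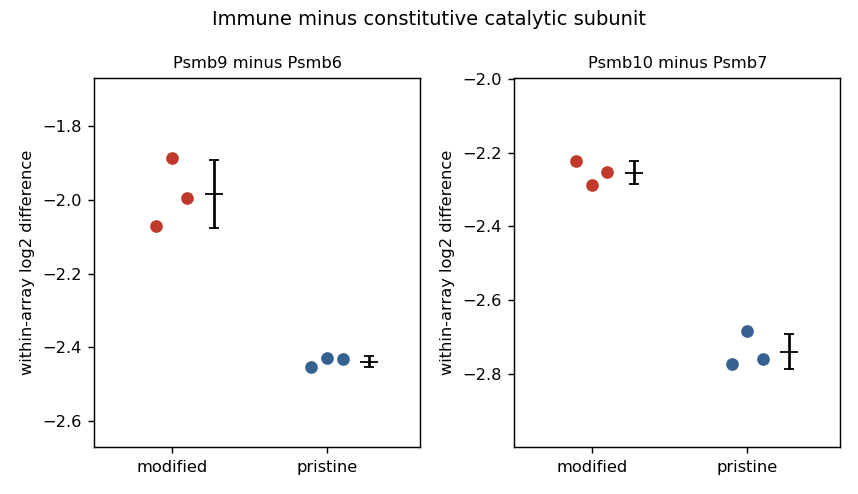
Within-array log2 difference between an immune catalytic gene and the constitutive gene of the same ring position, on 3 modified (red) and 3 pristine (blue) arrays, with the mean and SD in black and a span of 1 log2 unit per panel. Modified arrays lie between -2.07 and -1.89 for Psmb9 minus Psmb6 and between -2.29 and -2.22 for Psmb10 minus Psmb7, all above the pristine arrays.

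Psmb8 and Psmb9 lie in the MHC beside the genes of the peptide transporter that feeds MHC class I loading. In the GRCm38.p6 assembly the protein-coding order was Psmb9, Tap1, Psmb8, Tap2, with none between them. Psmb9 and Tap1 are read in opposite directions from starts 226 bases apart, so their promoter windows, each 250 bases before to 50 after the start, share 275 bases. Tap1 read 8.0, 7.43 and 7.61 on modified PEEK against 7.94, 8.36 and 8.13 on pristine PEEK. Its change was -0.47 (95% interval -0.85 to -0.082; adjusted p = 0.136, and 0.00704 with an intensity trend), whereas Psmb9 across the same stretch had 0.14. The window of Psmb9, chr17:34187281-34187580 (minus strand), is shown because it serves both genes, and that of Psme1, chr14:55578244-55578543 (plus strand), because it holds an interferon-type motif. Both are RefSeq sequences of GRCm38.p6, 5′ to 3′ on the gene's strand. Capitals mark a CCAAT box (here on the opposite strand) in Psmb9 and an interferon-stimulated response element (GAAA, any 2 bases, GAAA, read on the opposite strand) in Psme1.
Psmb9: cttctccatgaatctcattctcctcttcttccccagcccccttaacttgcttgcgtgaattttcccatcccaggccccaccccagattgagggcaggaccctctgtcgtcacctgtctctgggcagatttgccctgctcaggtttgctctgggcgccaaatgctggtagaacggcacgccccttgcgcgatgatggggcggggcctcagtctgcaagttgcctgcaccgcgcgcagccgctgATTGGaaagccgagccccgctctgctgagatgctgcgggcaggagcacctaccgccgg
Psme1: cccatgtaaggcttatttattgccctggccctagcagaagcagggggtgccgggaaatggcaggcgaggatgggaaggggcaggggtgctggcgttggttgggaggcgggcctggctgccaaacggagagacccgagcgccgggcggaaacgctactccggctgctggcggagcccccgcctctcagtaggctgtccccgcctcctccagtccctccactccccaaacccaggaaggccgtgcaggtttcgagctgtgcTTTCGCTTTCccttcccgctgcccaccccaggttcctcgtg

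The ATPases of the 19S base (Psmc1 to Psmc6) unfold substrates and open the gate of the core. None of the 6 passed, 5 had changes below 0, and their median was -0.14, or -0.15 relative to all genes. Psmc5 read 7.57, 7.35 and 7.51 on modified PEEK against 7.76, 7.80 and 7.81 on pristine PEEK. The pristine arrays were close together and every modified array was lower, with a change of -0.31 (95% interval -0.54 to -0.092; adjusted p = 0.0861, and 0.0164 with an intensity trend). Psmc2 read 9.40, 9.45 and 9.41 on modified PEEK against 9.57, 9.74 and 9.65 on pristine PEEK (-0.23, adjusted p = 0.175, and 0.00728 with an intensity trend). Psmc4 was also lower on 3 of 3 arrays, with a change of -0.16 (adjusted p = 0.336), while Psmc1 (-0.12), Psmc3 (-0.037) and Psmc6 (0.00039) overlapped.

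The non-ATPase genes of the 19S particle held both proteasome subunits that passed. Psmd11, whose product clamps the lid of the cap to the core, read 8.70, 8.65 and 8.62 on modified PEEK against 9.09, 9.03 and 9.03 on pristine PEEK. The surfaces were 0.40 apart with little spread on either, and Psmd11 fell by 0.40 ± 0.09 on the log2 scale (SE; adjusted p = 0.0235), which is 1.32-fold. Psmd8, for a further lid subunit, read 9.94, 9.95 and 9.91 on modified PEEK against 10.25, 10.33 and 10.35 on pristine PEEK. It fell by 0.37 ± 0.09 (SE; adjusted p = 0.0309), a 1.30-fold difference that was again wider than the spread on either surface. Without modified replicate 1 Psmd11 had an adjusted p of 0.0359, and without any other array it was 0.0539 to 0.0939, while Psmd8 did not pass without any 1 of the 6 arrays (0.0542 to 0.134). Centred on array medians, Psmd11 had an adjusted p of 0.0579 and Psmd8 of 0.0783, and neither passed when scaled to the poly-A spikes (Psmd11 0.531, Psmd8 0.581).

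The other 9 non-ATPase genes did not pass. Psmd2, which encodes a large scaffold subunit of the base, read 9.19, 8.85 and 9.03 on modified PEEK against 9.30, 9.31 and 9.37 on pristine PEEK, all lower but scattered (-0.30, adjusted p = 0.137, and 0.00466 with an intensity trend). Psmd4, for a ubiquitin receptor, read 9.16, 9.04 and 9.0 on modified PEEK against 9.19, 9.38 and 9.34 on pristine PEEK (-0.23, adjusted p = 0.209, and 0.0181 with an intensity trend). Its pristine replicate 1 lay next to the modified arrays. The deubiquitinase gene Psmd14 had a change of -0.063 (95% interval -0.28 to 0.15), and the other scaffold gene Psmd1 had 0.089 (-0.12 to 0.30). Psmd3, Psmd6, Psmd7, Psmd12 and Psmd13 overlapped as well, with changes from -0.089 for Psmd3 to 0.033 for Psmd7. Psmd12 read between 9.18 and 9.26 on all 6 arrays.

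Among the 8 assembly chaperone genes none passed, and 6 had changes below 0, with a median of -0.12. Psmd5, a chaperone of the 19S base, read 7.30, 7.27 and 7.47 on modified PEEK against 7.64, 7.79 and 7.73 on pristine PEEK. All modified arrays were lower, and the change of -0.37 (95% interval -0.60 to -0.14) missed the threshold narrowly (adjusted p = 0.0528). It passed in 5 of the 11 alternatives that kept all arrays, among them the intensity trend (adjusted p = 0.00615). Pomp, which guides the maturation of the core, read 8.83, 8.75 and 8.60 on modified PEEK against 8.60, 8.67 and 8.72 on pristine PEEK, with no separation (0.065, adjusted p = 0.78). Psmd9 was slightly lower on 3 of 3 arrays (-0.13, adjusted p = 0.459), and Psmd10 had a change of 0.012. The chaperones of the core rings, Psmg1 (-0.22), Psmg2 (-0.099), Psmg3 (-0.10) and Psmg4 (-0.23), overlapped between surfaces.

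Psmf1, which encodes a proteasome inhibitor protein, had the largest change of the 48 genes with a role. It read 9.21, 8.90 and 8.75 on modified PEEK against 9.45, 9.52 and 9.32 on pristine PEEK. Every modified array was lower, but these were widely spread, and the change of -0.47 ± 0.13 (SE) did not pass (adjusted p = 0.0642). It passed without modified replicate 1 (-0.60, adjusted p = 0.0199) and with an intensity trend (adjusted p = 0.000332). Psme3, for a nuclear activator, had a change of 0.070 (95% interval -0.15 to 0.29), and Psme4, for a further activator, read 7.57, 7.54 and 7.93 on modified PEEK against 7.76, 7.89 and 7.85 on pristine PEEK (-0.15, adjusted p = 0.55). The core genes used in other tissues, Psma8 in testis and Psmb11 in thymus, read at most 4.88 and 4.16 on any array, near the receptor background, and neither passed (Psma8 -0.020, Psmb11 0.30).

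Psmc3ip was the member with the largest change. Its product is a cofactor of DNA strand exchange in meiotic recombination, and it carries the symbol only because it was found as a partner of the protein encoded by Psmc3. It read 6.23, 5.91 and 6.11 on modified PEEK against 5.42, 5.15 and 5.18 on pristine PEEK. The surfaces were well apart, and Psmc3ip rose by 0.83 ± 0.12 (SE; 1.78-fold, 95% interval 1.47- to 2.16-fold; adjusted p = 0.00382). It passed in all 11 alternatives that kept all arrays and without each of the 6 arrays, with adjusted p-values from 0.000169 to 0.0239. Psmc3 itself had a change of -0.037. Psme3ip1, which encodes a protein that binds the Psme3 activator, did not pass (-0.093, adjusted p = 0.647).

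Promoter windows of RefSeq (GRCm38.p6) were found for 43 of the 51 members, 47 windows in all. The windows of the 3 genes that passed and of Psmb6 are shown, 5′ to 3′ on the gene's strand: Psmd8 at chr7:29180624-29180923 (minus strand), Psmd11 at chr11:80428365-80428664 (plus strand), Psmc3ip at chr11:101095386-101095685 (minus strand) and Psmb6 at chr11:70525107-70525406 (plus strand). Both strands were searched for the antioxidant response element core TGACNNNGC, to which the factors encoded by Nfe2l1 and Nfe2l2 bind, for the interferon-stimulated response element (GAAA, any 2 bases, GAAA) and for CCAAT. Capitals mark a match, the antioxidant response element core in Psmb6, which begins at -9 from the start, and a CCAAT box in Psmc3ip, at -36. Psmd8 and Psmd11 have none of these letters in the window.
Psmd8: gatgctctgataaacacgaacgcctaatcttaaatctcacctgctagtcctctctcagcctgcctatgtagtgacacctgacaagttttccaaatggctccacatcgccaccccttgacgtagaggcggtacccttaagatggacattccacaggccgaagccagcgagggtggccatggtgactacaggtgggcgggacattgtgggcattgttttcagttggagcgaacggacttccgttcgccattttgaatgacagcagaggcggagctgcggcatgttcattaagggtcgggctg
Psmd11: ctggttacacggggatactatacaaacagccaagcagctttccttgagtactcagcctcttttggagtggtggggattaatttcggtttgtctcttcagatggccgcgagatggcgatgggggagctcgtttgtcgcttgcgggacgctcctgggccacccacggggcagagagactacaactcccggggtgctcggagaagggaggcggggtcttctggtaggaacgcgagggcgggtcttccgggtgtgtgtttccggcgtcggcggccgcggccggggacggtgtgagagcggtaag
Psmc3ip: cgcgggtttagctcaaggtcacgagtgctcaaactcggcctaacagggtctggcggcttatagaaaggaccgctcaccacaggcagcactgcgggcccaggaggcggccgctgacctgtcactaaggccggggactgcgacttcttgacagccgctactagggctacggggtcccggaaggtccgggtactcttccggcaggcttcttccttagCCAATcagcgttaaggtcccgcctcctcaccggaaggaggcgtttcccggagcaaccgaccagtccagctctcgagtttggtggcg
Psmb6: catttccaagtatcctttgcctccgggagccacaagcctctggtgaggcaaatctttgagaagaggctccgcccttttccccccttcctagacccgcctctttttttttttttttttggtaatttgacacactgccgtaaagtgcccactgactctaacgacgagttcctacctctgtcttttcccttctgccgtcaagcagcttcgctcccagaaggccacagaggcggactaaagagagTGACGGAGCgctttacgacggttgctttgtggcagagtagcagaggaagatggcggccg

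The antioxidant response element core was present in 5 of the 47 member windows (10.6%), those of Psmb6, Psmc6, Psmd12, Psmd9 and Psme4, and in 12.4% of all 32851 promoter windows. The interferon-stimulated response element was present in 5 member windows (10.6%), those of Psmb3, Psmd4, Psmd9, Psme1 and Psmg4, and in 3.44% of all windows. CCAAT was present in 16 member windows (34.0%) and in 37.4% of all windows. Of the genes with the antioxidant response element core, Psmb6 had -0.31, Psmd9 -0.13 and Psme4 -0.15, while Psmc6 had 0.00039 and Psmd12 -0.018. Those with the interferon-stimulated response element had changes of -0.13 (Psmb3), -0.23 (Psmd4), -0.13 (Psmd9), -0.059 (Psme1) and -0.23 (Psmg4). Of all 51 members, 34 had changes below 0. A link between these motifs and the changes was not tested.

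Several regulators of proteasome genes are known, and 10 of 12 listed were measured, of which 2 passed as lower and 0 as higher, beside 5.15% lower and 5.24% higher of all genes. Nfe2l1, whose product raises transcription of proteasome genes when proteasome activity is short, read 9.96, 9.79 and 9.97 on modified PEEK against 10.49, 10.52 and 10.57 on pristine PEEK. The surfaces were far apart, and Nfe2l1 fell by 0.62 ± 0.10 (SE; 1.54-fold, adjusted p = 0.00485). Stat2, of the interferon signal path, read 7.27, 7.01 and 6.97 on modified PEEK against 7.76, 7.81 and 7.73 on pristine PEEK, a fall of 0.68 (adjusted p = 0.0055). Both passed without each of the 6 arrays, and neither passed when scaled to the poly-A spikes (Nfe2l1 adjusted p = 0.141, Stat2 0.111). Irf1, an interferon-induced activator of the immune subunit genes, read 6.96, 6.83 and 6.64 on modified PEEK against 6.84, 6.78 and 6.97 on pristine PEEK, with no separation (-0.054, adjusted p = 0.848). Ngly1 (0.43), Irf2 (0.25), Nfya (0.23), Irf8 (0.16), Nfe2l2 (0.13), Stat3 (-0.28) and Irf9 (-0.33) did not pass. With an intensity trend Irf2 passed as higher (adjusted p = 0.0316) and Irf9 as lower (adjusted p = 0.0257). Of the 10 regulators 1 then passed as higher and 3 as lower, beside 8.13% higher and 8.81% lower of all genes.

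Of 14 measured proteasome partners outside the symbol rule, 2 passed as lower and 0 as higher, beside the same shares of all genes. Zfand2a, a stress-induced zinc finger gene whose product binds the proteasome, read 9.60, 9.34 and 9.49 on modified PEEK against 10.15, 10.11 and 10.11 on pristine PEEK, a fall of 0.65 ± 0.10 (SE; adjusted p = 0.00488). Zfand5, for a related zinc finger protein that activates the proteasome, read 9.44, 9.49 and 9.63 on modified PEEK against 10.07, 10.01 and 10.00 on pristine PEEK, a fall of 0.50 ± 0.09 (SE; adjusted p = 0.0121). Both differences exceeded the spread on either surface. Zfand5 did not pass without pristine replicate 1 (adjusted p = 0.0555) or pristine replicate 3 (0.0503), and neither gene passed when scaled to the poly-A spikes (Zfand2a 0.128, Zfand5 0.31). Sem1, a small lid subunit gene (-0.16), the shuttle receptor gene Rad23b (-0.11) and the cap deubiquitinase gene Uchl5 (0.32, adjusted p = 0.0843) did not pass. Uchl5 passed as higher with an intensity trend (adjusted p = 0.00405) and when scaled to the poly-A spikes (0.0350). With the trend, 1 of the 14 partners passed as higher and 2 as lower, beside 8.13% higher and 8.81% lower of all genes.

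None of the 6 measured ubiquitin and segregase genes passed (median -0.14), among them Vcp, the ATPase that extracts ubiquitin-tagged proteins (-0.21, adjusted p = 0.475), and its cofactor gene Nploc4 (-0.25, adjusted p = 0.145). Of 13 measured genes of class I peptide supply and loading none passed, with 10 changes below 0 and a median of -0.16. With an intensity trend, 6 of these 13 passed as lower and 0 as higher, beside 8.81% lower and 8.13% higher of all genes. Scaled to the spikes, the changes of B2m (0.090) and H2-K1 (0.060), both among the 6, were above 0. B2m, the light chain of class I molecules, was lower on 3 of 3 modified arrays (-0.16, adjusted p = 0.353, and 0.00298 with an intensity trend). The chaperone gene Calr had a change of 0.070 (adjusted p = 0.72).

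**Figure D5:**
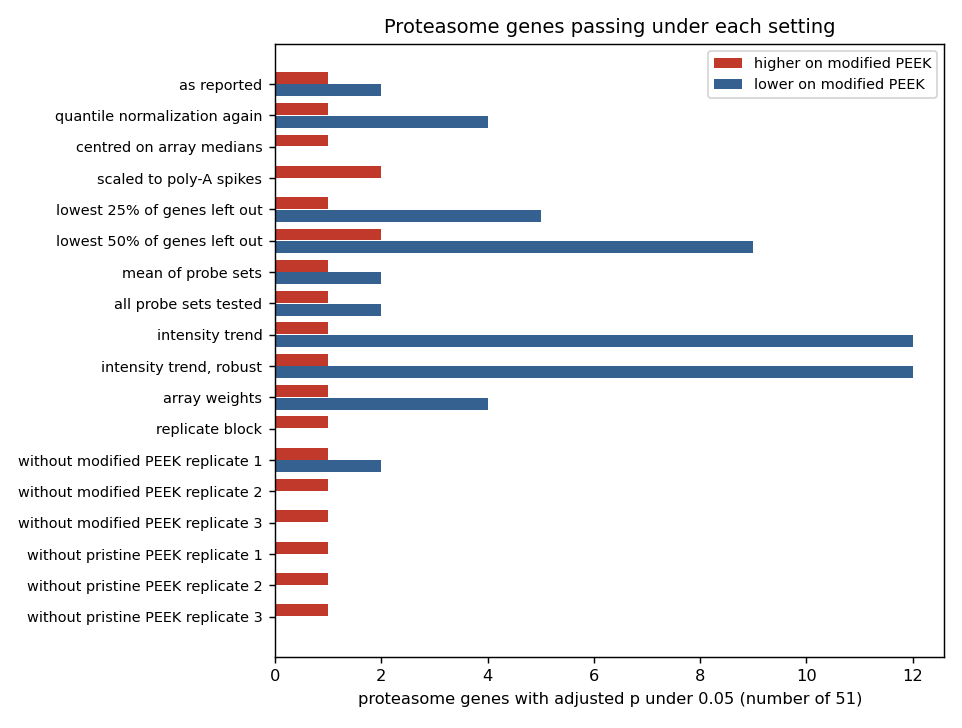
Number of the 51 proteasome genes with an adjusted p under 0.05 in each of the 18 fits, higher (red) or lower (blue) on modified PEEK. Psmc3ip passes as higher in every fit, while the number lower runs from 0 to 12. Over the same fits 1.49% to 15.6% of all genes tested were lower and 3.05% to 15.1% higher. Psma8, Psmb11 and Psmg3 were not tested in the fit without the dimmer 50% of genes.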

How the data were processed

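RNA of RAW264.7 macrophages on modified and pristine PEEK was profiled on 6 Affymetrix arrays, 3 per surface, from 250 ng of total RNA each, per the labels. The authors deposited log2 signals per probe set. The submitters' processing notes list RMA, which corrects background, quantile normalizes and summarises probes, with no version and no account of its use. That the scale is log2 follows from the range of the values. Quantile normalization would hide a change in total RNA per cell.

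The table has 29129 features. The platform annotation named 1 gene for 19572 probe sets and several for 0, and 2570 transcript probe sets had no name in it. For the 55 genes with several probe sets that with the highest mean was kept, leaving 19505 genes, and no member had more than 1. There were 0 unused columns of per-sample values. Coordinates are RefSeq's, since no source used here names the build of the array files.

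The test of modified against pristine PEEK was limma's moderated test (version 3.58.1, R 4.3.3), two-sided and with no intensity trend, on 4 residual and 4.09 prior degrees of freedom. Adjusted p-values are Benjamini-Hochberg values over all genes, with 0.05 as threshold. Changes are modified minus pristine PEEK. The number of arrays limits the precision. Alternatives were other array scalings, filters on dim genes, other probe set choices, variance models, weighted arrays, a block for the replicate number, and each array left out in turn. The members, lists, tests and alternatives were chosen with earlier results of these data known. Members given with values on every array were the immune and constitutive catalytic genes, those that passed, and the largest change in each role that did not. Psmb11 and Psme2b, chosen by the last rule, were given without every array. From the other lists, the markers apart, up to 4 genes that passed were given with values on every array. Up to 2 of the highest mean that did not pass were given by their change. Psma1, Psma7, Psmc2, Psmd4, Pomp, Psme4, Psmd12, Irf1 and Tap1, the partner differences and the promoter windows were chosen after values were seen. Figures were drawn with matplotlib 3.10.9.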

Additional observations from a re-analysis of the deposited data

How the results depend on the processing

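The call for Psmc3ip as higher held in all 11 alternatives with all arrays and in the 6 fits without 1 array. The number of members lower was 2 as reported, where 5.15% of all genes were lower. It was 4 after quantile normalization again (5.88% of all genes) and 0 after centring on array medians (4.17%). Scaled to the poly-A spikes it was 0, where only 1.49% of all genes were lower. With the dimmer 25% of genes left out it was 5 (8.40% of the genes kept). With the dimmer 50% left out, which also dropped Psma8, Psmb11 and Psmg3, it was 9 (15.6%). It was 12 with an intensity trend (8.81% of all genes) and 12 with a robust trend (8.73%). With array weights it was 4 (6.52%) and with the replicate block 0 (3.19%). The 19S genes lower numbered 2 as reported, 0 after centring, 0 with the spikes, 5 without the dimmer 50%, 6 with either trend and 0 with the replicate block. The 20S genes lower numbered 0 as reported, 1 and 2 without the dimmer 25% and 50%, 4 with either trend and 1 with array weights. With the spikes, and without the dimmer 50% of genes, 2 members were higher, 1 of them the immune gene Psmb10. Of all genes tested in these fits, 8.07% and 15.1% were higher. Of all genes, 2027 passed as reported (1023 higher, 1004 lower), 1575 higher and 290 lower with the spikes, 3305 with the trend, 3282 with the robust trend and 1268 with the replicate block. Scaled to the spikes, the median change was 0.18 for all members, 0.34 for the immune, 0.20 for the 20S and 0.16 for the 19S genes, and 0.26 for all genes. Without 1 array, 1142 to 1863 genes passed, with 0 to 2 members lower and 1 to 1 higher, 0 to 1 of the 19S lower and 0 higher, and 0 to 0 of the 20S and of the immune genes in either direction. Medians then ran from -0.095 to -0.045 for all members, 0.034 to 0.14 for the immune, -0.069 to -0.043 for the 20S and -0.15 to -0.054 for the 19S genes, and -0.013 to 0.017 for all genes. Genes that passed with the trend but had the opposite sign, without passing, when scaled to the spikes were Psma6 (0.049), Psmb7 (0.042), Psmc2 (0.014), Psmd4 (0.013), B2m (0.090) and H2-K1 (0.060). The cause of these shifts was not tested. Filters leave fewer genes to adjust over and also refit the variance prior on the genes kept. An array left out lowers the degrees of freedom.

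The labels do not state whether equal replicate numbers pair the arrays of the surfaces. Same-numbered arrays had correlations of their deviations of -0.17, -0.16 and 0.068 over genes. The deviations of pristine replicates 1, 2 and 3 correlated best with modified replicates 2, 1 and 3. With 3 arrays per surface these values cannot decide whether arrays were paired. The replicate block ended the calls for Psmd11 (adjusted p = 0.0877), Psmd8 (0.109) and Zfand5 (0.0548), and Psmc3ip was the member left.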
